A study of Homo sapiens with 6 samples.

Results

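The genes described here are the inhibitors of apoptosis (IAPs) BIRC2, BIRC3, XIAP, BIRC5 and BIRC6, the IAP antagonists DIABLO and HTRA2, and XAF1, whose product binds XIAP. They were chosen by gene name and not by any measured value, and all 8 had a row among the 35716 genes of the count table. The cells were MIA PaCa-2, an established human line derived from a pancreatic ductal adenocarcinoma and labelled wild type. One group of 3 libraries came from cells with no treatment, kept for 24 h in medium with 10% serum, and the other group of 3 from cells exposed for 24 h to 10 nM triptolide, a plant diterpenoid known to target XPB, a TFIIH subunit, and so to reduce transcription. The series text calls the triptolide arm the control group, and the names here follow the treatment labels. No vehicle is named for the untreated cells, and no serum content is stated for the triptolide cells. Whether replicates were grown separately is not stated, so the p-values rest on a spread that may be purely technical. In bulk RNA, fewer cells of a kind and less RNA per cell cannot be told apart.

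IAPs are defined by the BIR domain, a zinc-binding fold. XIAP binds and blocks initiator and executioner caspases directly. The cellular IAPs cIAP1 and cIAP2, encoded by BIRC2 and BIRC3, are ubiquitin ligases of the TNF receptor complex that favour canonical NF-kB signalling and keep the kinase of the non-canonical pathway, the product of MAP3K14, at a low level. BIRC3 is itself a known NF-kB target. Survivin, the product of BIRC5, acts mainly in mitosis as a subunit of the chromosomal passenger complex, and BIRC6 encodes a giant ubiquitin-conjugating enzyme. DIABLO (Smac) and HTRA2 are mitochondrial proteins that bind BIR domains once released into the cytosol. Short-lived IAPs are often discussed as targets in pancreatic carcinoma, a tumour known for resistance to apoptosis.

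The regions just before the start sites of the 3 IAP genes that fell with triptolide are shown here. Among measured protein-coding genes BIRC3 and BIRC2 lie next to each other, but of their printed windows only that of BIRC3 held a match to a motif searched. The sequences are RefSeq's (GRCh38.p14), 250 bases before the farthest upstream start listed, all on the plus strand, at chr11:102317234-102317483 for BIRC3, chr11:102346964-102347213 for BIRC2 and chrX:123859458-123859707 for XIAP. Capitals mark matches on either strand to the NF-kB (kappaB) consensus in BIRC3 and to the GC box GGGCGG in XIAP.
BIRC3: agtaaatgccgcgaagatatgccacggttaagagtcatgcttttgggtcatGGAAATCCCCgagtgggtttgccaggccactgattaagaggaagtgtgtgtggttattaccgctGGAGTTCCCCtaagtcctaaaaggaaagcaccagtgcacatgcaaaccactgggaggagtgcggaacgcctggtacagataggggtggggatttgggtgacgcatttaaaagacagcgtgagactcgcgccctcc
BIRC2: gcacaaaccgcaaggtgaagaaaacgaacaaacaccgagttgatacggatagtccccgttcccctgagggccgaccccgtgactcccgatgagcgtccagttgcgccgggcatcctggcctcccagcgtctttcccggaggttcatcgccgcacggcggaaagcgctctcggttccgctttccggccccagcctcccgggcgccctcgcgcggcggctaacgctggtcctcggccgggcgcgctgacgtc
XIAP: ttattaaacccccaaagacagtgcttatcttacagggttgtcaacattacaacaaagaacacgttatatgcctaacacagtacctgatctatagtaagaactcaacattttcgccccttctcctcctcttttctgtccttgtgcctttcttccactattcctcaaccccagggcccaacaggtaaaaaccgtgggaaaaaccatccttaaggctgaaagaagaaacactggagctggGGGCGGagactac
The BIRC3 window held 2 kappaB matches that did not overlap, starting 199 and 135 bases before the start. At least 1 such match stood in 5.21% of all 35116 RefSeq windows of this length, and 2 or more in 0.635%. The BIRC2 window held none of the 5 motifs searched on both strands, which were kappaB, GGGCGG, the cyclic AMP element TGACGTCA, the interferon-factor element (GAAA, any 2 bases, GAAA) and TATAAA. A second BIRC2 start, farther downstream, had 1 TGACGTCA, a palindrome counted once, and 1 GGGCGG in its window. These motifs stood in 1.65% and 42.6% of all windows. All letters of that TGACGTCA but the last also close the BIRC2 window printed above, which ends inside it. The interferon-factor and TATAAA elements, found in 3.02% and 10.7% of windows, were in no window of the 7 genes with an entry, and BIRC5 had no entry. Among the other members, a kappaB match stood in 1 window each of BIRC6 and XAF1. GGGCGG stood in each of the 4 DIABLO windows and in 1 window each of BIRC6 and HTRA2. These matches describe letters only.

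Total counts ran from 16302961 to 23262713 per library. Of 15202 genes tested, 15.9% were called at an edgeR adjusted p under 0.05, with 10.0% higher and 5.82% lower in cells with triptolide. Levels are CPM, counts scaled to a common TMM-adjusted library size, and a change in one gene is therefore relative to the rest of its library. Of the ductal carcinoma markers, KRT8 and KRT18 stood at 1894 ± 341 and 869.9 ± 168 CPM (SD, n = 3) in untreated cells, while EPCAM and CDH1 had 4 and 5 counts over the untreated libraries. Of the 9 markers on that list 7 were tested, KRT18 fell 1.73-fold and 0 rose, and the sums were 2708 to 3783 CPM untreated and 2103 to 2771 CPM with triptolide. On a list of 20 trophoblast markers, 15 of 17 tested rose, the summed level went from a range of 128 to 142 CPM to a range of 686 to 1085 CPM, and HSD3B1, GCM1 and ERVFRD-1 were at 0 counts in untreated cells. On a list of 15 fibroblast markers, 5 of 10 tested fell, with sums of 441 to 533 CPM untreated and 325 to 440.5 CPM with triptolide, where FAP was at 0. On a list of 13 blood, endothelial and immune markers, 5 of 7 tested rose and 1 fell, with sums of 24 to 29 CPM and 29.8 to 45.2 CPM, and CD68, CD163, HBG1 and HBG2 were at 0 untreated. Single genes made up much of these sums. On the trophoblast list, TFAP2A averaged 115 CPM untreated and 128 CPM with triptolide and was not called, while CSH1 went from 4.92 to 430 CPM. Of the fibroblast markers, COL1A2 averaged 323 CPM untreated and 329 CPM with triptolide. CDH5, the fallen gene of the blood, endothelial and immune list, went from 23.6 to 15.9 CPM. The part of these other cell-type markers in the results on the IAP genes was not tested.

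Of 7 tested among the 8 genes, BIRC3, BIRC2 and XIAP fell and DIABLO rose, beside the 5.82% and 10.0% of all tested genes called lower and higher. The XIAP groups overlapped, and its call depended on single libraries. Differences between members were not tested. BIRC5, BIRC6 and HTRA2 were not called, and XAF1 was too low to test. The groups did not overlap for BIRC3, BIRC2 and DIABLO, beside 36.7% of all tested genes.

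BIRC3 (ENSG00000023445), which encodes cIAP2, fell in cells with triptolide. Its level was 24.8, 25.0 and 18.6 CPM in untreated replicates 1 to 3 and 5.48, 10.0 and 9.34 CPM in triptolide replicates 1 to 3. Every triptolide library lay below every untreated one, and triptolide replicate 1 was the lowest. The log2 fold change was -1.45 ± 0.24 (SE), with a 95% interval from -1.96 to -0.94 and an adjusted p of 0.00186. BIRC3 was called under every scaling, filter, tool and left-out library tried.

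BIRC2 (ENSG00000110330), which encodes cIAP1, was tightly grouped in untreated cells at 75.9, 78.8 and 74.0 CPM. With triptolide it stood at 26.6, 50.9 and 46.0 CPM, again lowest in replicate 1 and without overlap between groups. The log2 fold change was -0.89 ± 0.22 (SE), with an interval from -1.36 to -0.41 and an adjusted p of 0.0179. Leaving out untreated replicate 2 gave -0.87 (adjusted p = 0.0544). The value was -0.70 with an adjusted p of 0.218 with scaling on ribosomal protein genes. That scaling shifted the middle of all log2 fold changes from -0.004 to 0.17.

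Within a library, where no scaling enters, the ratio of BIRC2 to BIRC3 counts per kb of exon was 5.07, 5.22 and 6.61 in untreated and 8.05, 8.43 and 8.17 in triptolide replicates 1 to 3. The ratio was thus higher in each triptolide library than in any untreated one. No other measured protein-coding gene lies between BIRC3 and BIRC2 by their GENCODE 29 positions. On the BIRC3 side, YAP1, the Hippo pathway coactivator, stood at 79.9, 79.7 and 55.6 CPM untreated and 67.0, 68.9 and 84.6 CPM with triptolide, a log2 fold change of 0.04 ± 0.19 (SE, adjusted p = 0.918). On the BIRC2 side, TMEM123 had a log2 fold change of 0.28 ± 0.18 (SE, adjusted p = 0.299). Of the 6 nearest measured protein-coding neighbours, 3 on each side, 4 were tested and 0 passed at this threshold, beside 15.9% of all tested genes. CFAP300 and CEP126 had adjusted p-values of 0.977 and 0.482, and MMP7 and MMP20 were too low to test.

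XIAP (ENSG00000101966), the direct caspase inhibitor, showed overlapping groups. It stood at 35.4, 37.7 and 26.5 CPM in untreated and 15.4, 17.6 and 26.5 CPM in triptolide replicates 1 to 3, so that the 2 libraries numbered 3 were level. The log2 fold change was -0.74 ± 0.23 (SE), with an interval from -1.23 to -0.25 and an adjusted p of 0.0439. The call was lost when untreated replicate 1 or 2 was left out (adjusted p = 0.104 and 0.15) and when triptolide replicate 1 or 2 was (adjusted p = 0.118 and 0.108). The adjusted p was 0.107 with library totals alone, 0.109 under a filter at a 5 CPM mean and 0.42 with ribosomal protein scaling. The estimate stayed below 0 in all of these, from -1.01 to -0.57 over the left-out libraries.

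**Figure D1:**
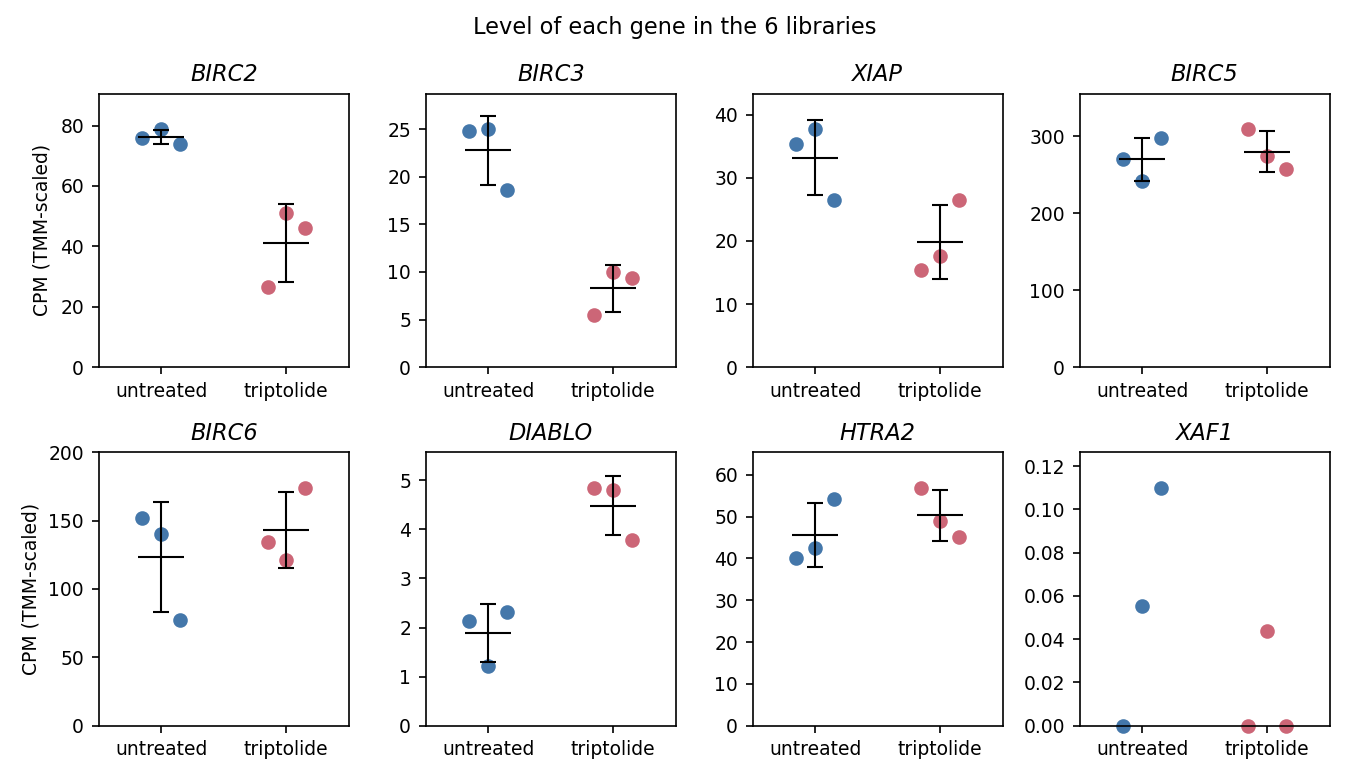
Level of each of the 8 genes in CPM on linear axes from 0. Points are single libraries in replicate order (blue untreated, red triptolide), and black marks give the mean ± SD of 3 libraries, left out for XAF1. BIRC2 and BIRC3 separate downward, DIABLO separates upward from 1.89 to 4.49 CPM on average, and the other groups overlap.

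BIRC5 (ENSG00000089685), the survivin gene, was the most abundant member per kb of exon. It had 270.1, 242 and 298 CPM in untreated and 309, 274 and 257 CPM in triptolide replicates 1 to 3, with full overlap. The log2 fold change was 0.05 ± 0.16 (SE), with a 95% interval from -0.29 to 0.40 and an adjusted p of 0.855. The interval leaves out a fall of the size estimated for BIRC2 or BIRC3, but a difference between the fold changes of these genes was not tested.

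BIRC6 (ENSG00000115760) had a wide spread among untreated libraries, at 152, 140.3 and 77.3 CPM. With triptolide it stood at 134, 121 and 174 CPM, and the log2 fold change was 0.21 ± 0.24 (SE), with an interval from -0.31 to 0.74 and an adjusted p of 0.592. Untreated replicate 3 was the lowest of the 6 libraries, as it was among the untreated libraries for XIAP and BIRC3. Counts per kb for BIRC6 over XIAP were 2.17, 1.88 and 1.48 in untreated and 4.37, 3.47 and 3.32 in triptolide replicates 1 to 3, without overlap. The ratio of BIRC5 to XIAP, at 18.0, 15.2 and 26.6 untreated and 47.4, 36.9 and 23 with triptolide, did overlap between groups. So did that of BIRC2 to XIAP, at 4.26, 4.16 and 5.56 untreated and 3.43, 5.77 and 3.46 with triptolide.

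DIABLO (ENSG00000184047), the gene of the IAP antagonist Smac, was counted at a low level that rose. It had 2.13, 1.22 and 2.31 CPM in untreated and 4.85, 4.81 and 3.79 CPM in triptolide replicates 1 to 3, from 102 and 282 counts per group. The log2 fold change was 1.24 ± 0.27 (SE), with an interval from 0.65 to 1.83 and an adjusted p of 0.00908, and it ranged from 1.00 to 1.40 over the left-out libraries. The count is uncertain: in GENCODE 29 the exons of DIABLO share 2006 and 1139 bp with 2 other protein-coding genes on the same strand, which were not analysed here, and 970 bp with B3GNT4 on the opposite strand. B3GNT4, a glycosyltransferase gene, rose in the same direction, from 1.68, 1.72 and 1.93 CPM to 3.84, 3.50 and 3.31 CPM (log2 fold change 0.99 ± 0.23 (SE), adjusted p = 0.0119). XIAP over DIABLO, in counts per kb, was 12.5, 23.2 and 8.6 untreated and 2.39, 2.74 and 5.25 with triptolide, without overlap. The part of shared exons in that ratio and in the level and the rise of DIABLO was not tested.

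HTRA2 (ENSG00000115317), the gene of a mitochondrial serine protease, stood at 40, 42.4 and 54.2 CPM in untreated and 56.9, 49.0 and 45 CPM in triptolide replicates 1 to 3. The groups overlapped, with a log2 fold change of 0.14 ± 0.18 (SE), an interval from -0.25 to 0.53 and an adjusted p of 0.629. Its exons share 483 bp with AUP1 and 625 bp with LOXL3 on the opposite strand. AUP1 was at 178 to 234 CPM in 5 of the 6 libraries and at 148 CPM in triptolide replicate 3, and since no strand setting is given, reads of an antisense partner cannot be told apart from those of HTRA2. XAF1 (ENSG00000132530), an interferon-inducible gene, had 0, 1 and 2 counts in untreated and 0, 1 and 0 counts in triptolide replicates 1 to 3. The sums were 3 and 1 counts, XAF1 did not pass the low-count filter, and no fold change is given.

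Per kb of GENCODE 29 exon, the untreated levels ran in the order BIRC5 at 70.8 ± 7.34, BIRC2 at 16.8 ± 0.54, HTRA2 at 15.2 ± 2.53, BIRC6 at 6.91 ± 2.26, XIAP at 3.68 ± 0.66, BIRC3 at 3.03 ± 0.49 and DIABLO at 0.279 ± 0.0865 CPM per kb (SD, n = 3). BIRC2 and HTRA2 did not differ beyond their spread, nor did XIAP and BIRC3. XAF1, too low to test, is left out of this order and the next. With triptolide BIRC5 was again the highest, at 73.4 ± 6.89 CPM per kb, and DIABLO the lowest of the tested genes, at 0.662 ± 0.0884. HTRA2, at 16.8 ± 2.02 CPM per kb, stood above BIRC2 at 9.09 ± 2.84, which was within the spread of BIRC6 at 8.0 ± 1.57. XIAP and BIRC3 followed at 2.20 ± 0.65 and 1.10 ± 0.33 CPM per kb. Against the antagonist HTRA2, XIAP stood at ratios per kb of 0.294, 0.295 and 0.162 in untreated and 0.0901, 0.119 and 0.196 in triptolide replicates 1 to 3, which overlap. Exon lengths take every annotated exon, so the order depends on the annotation.

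The 3 fallen genes are also the 3 with the lowest GC content. Their transcripts hold 37.4% (BIRC3), 39.7% (BIRC2) and 40.2% (XIAP) GC, while BIRC6 holds 42.1% and the others 48.9% to 56.9%. Across all tested genes, the median log2 fold change was -0.20 under 40% GC, -0.13 from 40% to 45%, and 0.11 at 55% and above. With a GC offset fitted per library, the log2 fold changes were -1.24 for BIRC3 (adjusted p = 0.000363), -0.72 for BIRC2 (adjusted p = 0.0028), -0.55 for XIAP (adjusted p = 0.04) and 1.18 for DIABLO (adjusted p = 0.00924). The same 4 genes were called, where the offset called 12.5% of all genes lower and 13.7% higher. The estimates for the 3 fallen genes were smaller in size than without the offset.

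**Figure D2:**
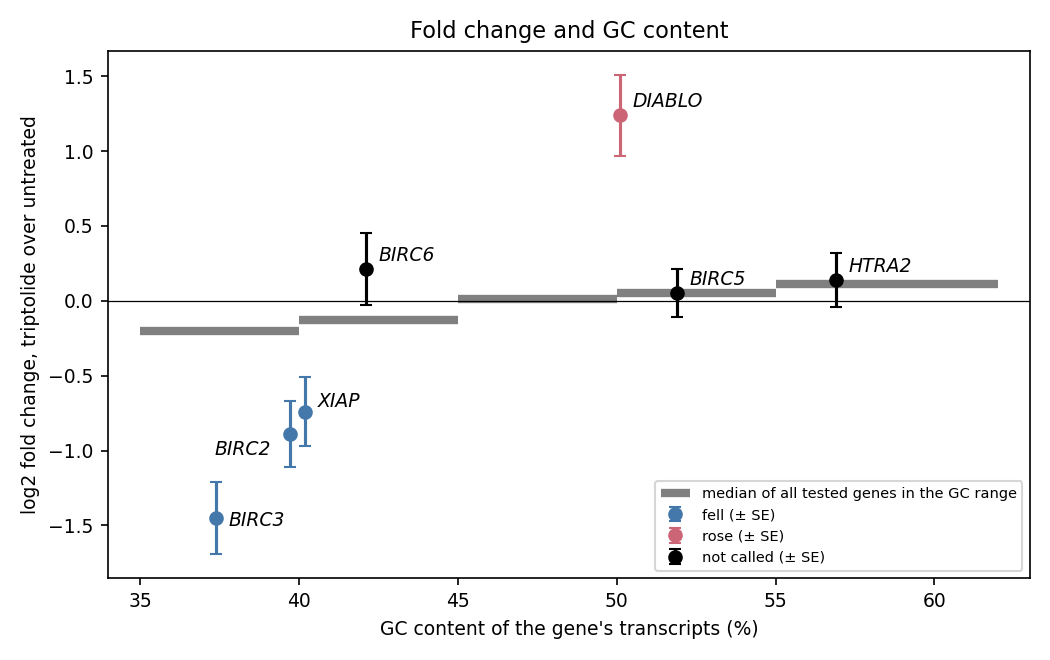
Log2 fold change of the 7 tested genes (± SE) against the GC content of their transcripts in percent. Grey bars are the medians of all tested genes in 5 GC ranges, with the outer ranges drawn only in part; BIRC3, BIRC2 and XIAP lie below the bars of their ranges, DIABLO lies above, and BIRC5 and HTRA2 lie on them within 1 SE.

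**Figure D3:**
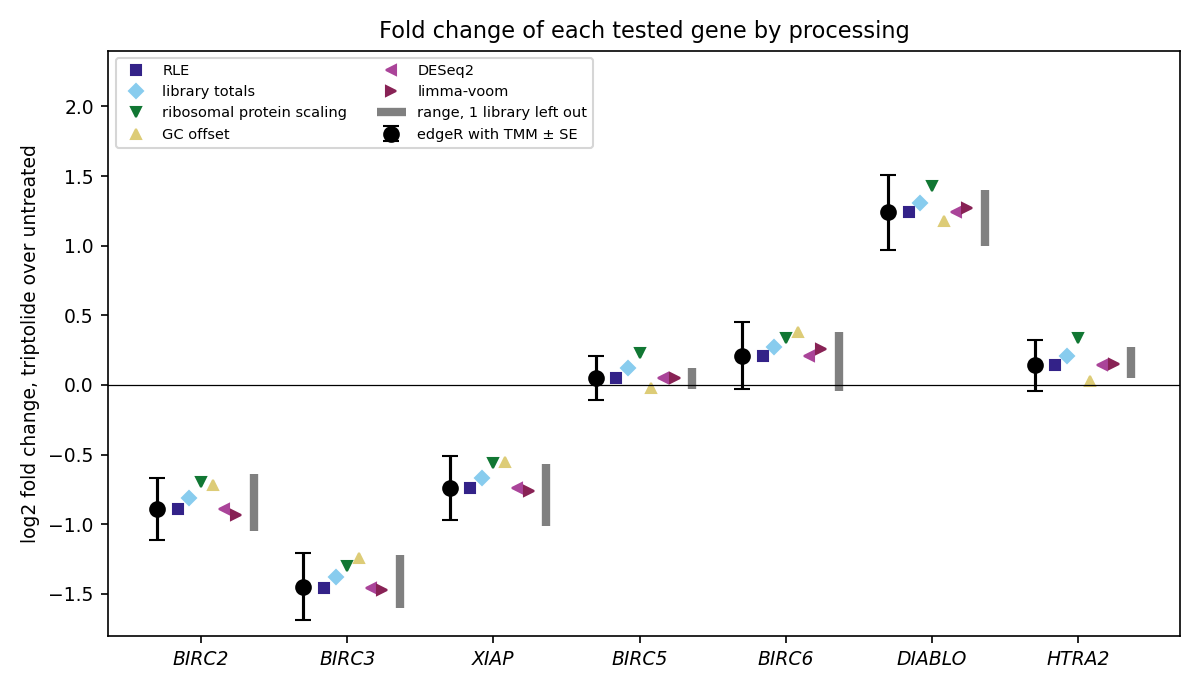
Log2 fold change of the 7 tested genes under the fit reported here (black, ± SE), under 6 other scalings or tools (coloured marks), and as the range with 1 library left out (grey bars). BIRC3, BIRC2 and XIAP stay below 0 and DIABLO above 0 throughout, while BIRC5 and BIRC6 cross 0 in some settings.

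On the list of IAP regulators, 2 of 10 tested genes rose and 0 fell, beside 10.0% and 5.82% of all tested genes. The median log2 fold change was 0.15 beside -0.004 over all tested genes. USP11, a deubiquitinase reported to stabilise IAP proteins, was at 223, 222 and 210.1 CPM in untreated and 545, 368 and 402 CPM in triptolide replicates 1 to 3, and rose by 1.00 ± 0.18 (SE) on the log2 scale (adjusted p = 0.00305). SEPTIN4, whose ARTS isoform binds XIAP, rose 3.14-fold from a low level, 0.39 ± 0.11 to 1.23 ± 0.26 CPM (SD, n = 3), with an adjusted p of 0.00965 that was 0.0585 without untreated replicate 2. These counts are for the whole gene and not for the ARTS isoform. UBA6, the ubiquitin-activating enzyme that charges BIRC6, had a log2 fold change of -0.30 ± 0.20 (SE, adjusted p = 0.358). Of the further BIR-domain genes, NAIP was at 0.617, 0.499 and 0.716 CPM untreated and 0.252, 0.613 and 0.879 CPM with triptolide (adjusted p = 1.0), and BIRC7 was too low to test.

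On the list of caspase and apoptosome genes, 2 of 11 rose and 0 fell, beside 10.0% and 5.82% of all tested genes. The median log2 fold change was -0.15. CASP10, an initiator caspase of death receptors, stood at 6.62, 7.37 and 7.27 CPM untreated and at 12.3, 12.4 and 12.6 CPM with triptolide, a 1.76-fold rise with an adjusted p of 0.00893. Leaving out untreated replicate 1 gave CASP10 an adjusted p of 0.0532 and left 0 of the 11 genes called. CASP9, the initiator caspase of the apoptosome and a target of XIAP, was lower in each triptolide library than in any untreated one, at 8.97, 7.81 and 8.32 CPM untreated and 6.36, 6.34 and 6.19 CPM with triptolide. Its log2 fold change of -0.41 ± 0.18 (SE) was not called (adjusted p = 0.152). Groups did not overlap for 5 of the 11 genes, in both directions, beside 36.7% of all tested genes.

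In the TNF receptor complex, where cIAP1 and cIAP2 act, 1 of 19 tested genes fell and 0 rose. Over all tested genes 5.82% fell and 10.0% rose. The list had a median log2 fold change of -0.14. The fallen gene was MAP3K14, which encodes NIK, the kinase that cIAPs mark for degradation. It stood at 77.8, 72.7 and 76.4 CPM in untreated and 56.7, 40.6 and 44.0 CPM in triptolide replicates 1 to 3, a log2 fold change of -0.69 ± 0.17 (SE, adjusted p = 0.0186). The call was lost without untreated replicates 1 or 2 (adjusted p = 0.0642 and 0.0617) or triptolide replicates 2 or 3 (adjusted p = 0.0567 and 0.0868). The adaptor genes that recruit cIAPs were not called: TRAF2 had a log2 fold change of -0.26 ± 0.18 (SE, adjusted p = 0.38) and TRAF1 of -0.48 ± 0.17 (SE, adjusted p = 0.0723). RIPK1, a ubiquitination substrate of cIAPs, had one of 0.13 ± 0.16 (SE, adjusted p = 0.613). CFLAR, an inhibitor of CASP8 activation, was higher in each triptolide library than in any untreated one, but was not called (adjusted p = 0.063). Groups did not overlap for 5 of the 19 genes, beside 36.7% of all tested genes.

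Among NF-kB subunits and targets, the list nearest to BIRC3, 5 of 21 tested genes fell and 1 rose, and 12 of 21 had groups that did not overlap. Over all tested genes 5.82% fell, 10.0% rose and 36.7% did not overlap. With ribosomal protein scaling 3 of the 21 were called, 2 lower and 1 higher. The median log2 fold change was -0.29. The chemokine gene CXCL8 went from 105, 109.9 and 102 CPM to 25.9, 47.9 and 39.1 CPM, a log2 fold change of -1.49 ± 0.21 (SE, adjusted p = 0.000776), close in size to that of BIRC3. CXCL1, another chemokine gene, fell 2.44-fold, and NFKBIA, the gene of the inhibitor IkB-alpha, fell 1.68-fold from 155 ± 3.59 to 92.4 ± 15.2 CPM. NFKBIA had an adjusted p of 0.00965, and of 0.0593 without triptolide replicate 3. IER3, an early response gene, rose 2.03-fold. The subunit genes RELA and NFKB1 had log2 fold changes of 0.09 ± 0.15 and -0.40 ± 0.17 (SE, adjusted p = 0.747 and 0.124). With the GC offset, 12 of the 21 were called lower and 1 higher, where the share of all genes called lower also went from 5.82% to 12.5%. The list was written with earlier results on CXCL8, CXCL1, IER3 and BIRC3 in view, so its direction is not independent evidence.

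Among 15 tested genes of the chromosomal passenger complex and of mitosis in general, 1 fell and 0 rose, beside 5.82% and 10.0% of all tested genes. The median log2 fold change of that list was -0.09. Survivin's complex partners AURKB, INCENP and CDCA8 had log2 fold changes of 0.21 ± 0.18, 0.51 ± 0.20 and 0.00 ± 0.15 (SE), with adjusted p-values of 0.461, 0.0949 and 0.994. CCNB1, the mitotic cyclin, fell 1.62-fold from 529.6 ± 50.2 to 327 ± 39.3 CPM (adjusted p = 0.0131). Leaving out untreated replicate 2 or triptolide replicate 3 ended that call (adjusted p = 0.0549 and 0.0617). Among interferon-response genes, the setting in which XAF1 is usually induced, 1 of 14 tested rose and 1 fell. Over all tested genes 10.0% rose and 5.82% fell. STAT2, a signal transducer of interferon receptors, rose 1.46-fold (adjusted p = 0.0396), a call kept only without triptolide replicate 1 among the 6 left-out libraries. IFIT3, an interferon-induced effector, fell 1.70-fold (adjusted p = 0.0161), and lost its call without untreated replicate 2 (0.0702) or triptolide replicate 3 (0.0617). With ribosomal protein scaling, MAP3K14, NFKBIA, CCNB1, STAT2 and IFIT3 kept their direction but not their call, at adjusted p-values of 0.276, 0.167, 0.183, 0.161 and 0.249.

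**Figure D4:**
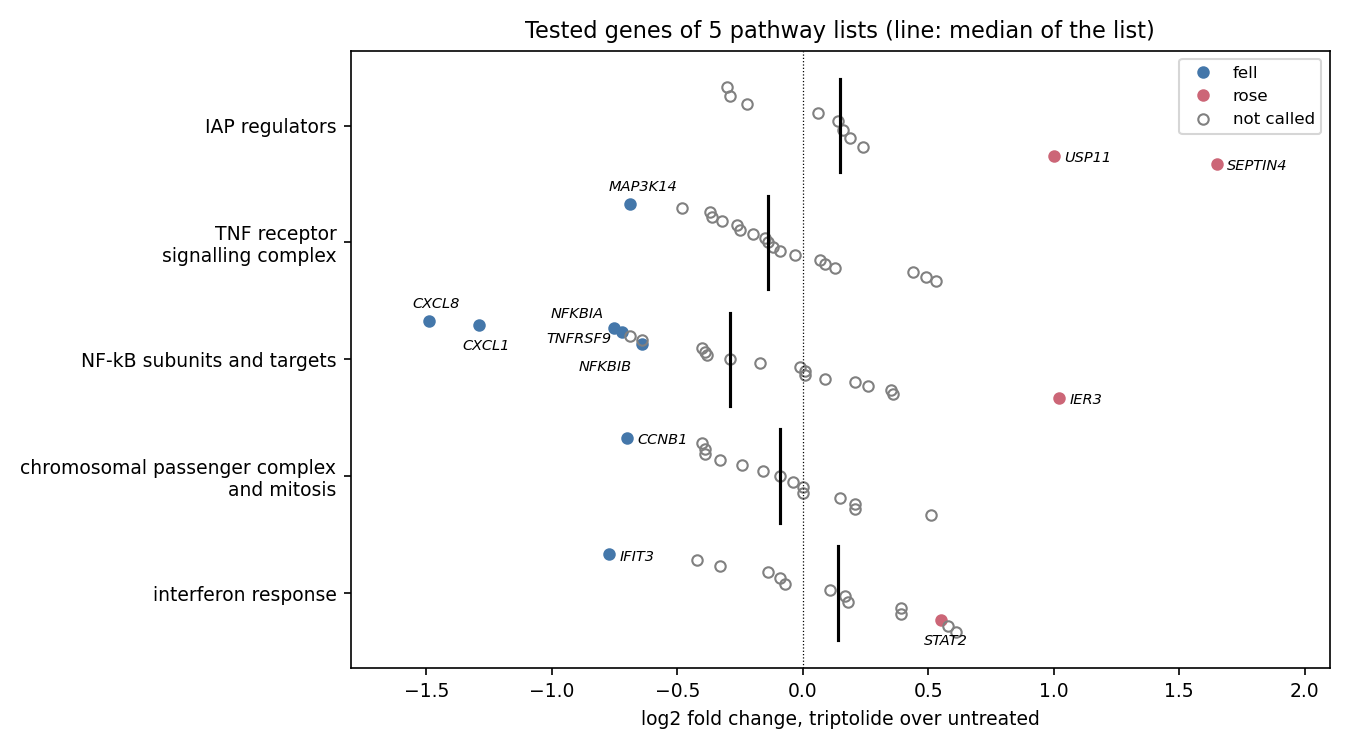
Log2 fold change of each tested gene on 5 lists around the IAPs, with filled points for genes called at an adjusted p under 0.05 (blue fell, red rose), open points for genes not called, and a vertical line at the list's median. The NF-kB list has its median at -0.29 and most of the fallen genes, and the list of IAP regulators has 2 risen genes and no fallen one. Over all tested genes 10.0% rose and 5.82% fell.

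Over the 6 libraries, the genes with the pattern most like a called member were ranked by Pearson's r of log2 CPM among genes averaging 5 CPM or more. These values describe 6 points in 2 groups and carry no test. Nearest to BIRC3 were CDCA7, PAWR and DIMT1 (r = 0.998, 0.998 and 0.997), and nearest to BIRC2 were NAA15, SMC3 and MTPAP (r = 0.998, 0.998 and 0.997). Nearest to XIAP were LMNTD1, MATCAP2 and TBCCD1 (r = 0.994, 0.990 and 0.987), none of which was called. Nearest to DIABLO were ASB16-AS1, PI4KAP1 and FER1L4 (r = 0.988, 0.987 and 0.986). The 6 genes nearest to BIRC3 and BIRC2 all fell, by 1.48-fold for DIMT1 to 1.92-fold for NAA15, less in size than BIRC3 at 2.73-fold. Their direction follows from the way they were picked, by likeness to fallen genes in the same libraries.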

How the data were processed

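Poly(A)-selected RNA of 6 libraries was sequenced as paired 150 bp reads, per the labels' protocols. The authors deposited whole-number counts per Ensembl gene; the tools were HISAT2 and featureCounts, per the submitters' processing notes. Versions, build, annotation, strand setting and multi-mapping rule: not given in the sources used here. Names were matched by ID for 35710 of 35716 genes; exon lengths, GC content and overlaps came from GENCODE 29.

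Genes were kept by filterByExpr (15202), TMM-scaled and compared by the quasi-likelihood test of edgeR 4.0.16 in R 4.3.3, triptolide against untreated, with Benjamini-Hochberg adjustment over all genes tested and a threshold of 0.05. Standard errors were taken from the fold change and its F statistic, and intervals from the t quantile at the fit's degrees of freedom. Alternatives were other scalings and filters, DESeq2 1.42.0, limma-voom 3.58.1, a replicate block and each library left out; a GC offset (lowess span 0.3) was chosen after seeing the data. Recovery of known fold changes was tested on simulated data. Named genes are the 8 members, up to 3 per direction with the smallest adjusted p from each list, or the 2 most abundant where none passed, the 3 most alike genes per called member and the neighbours of BIRC2 and BIRC3; other list genes named (such as CASP9, TRAF1, TRAF2, RIPK1, CFLAR, RELA, NFKB1, UBA6, AURKB, INCENP and CDCA8) were chosen for their role after their values were seen. The members and lists were chosen with earlier results of these data known. Part of the caspase list is not reported gene by gene here. Figures used matplotlib 3.10.9.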

Additional observations from a re-analysis of the deposited data

How the results depend on the processing

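BIRC3 and DIABLO kept their direction and call in every alternative that gave a value; DIABLO had none under the 5 CPM filter, where it was not tested. BIRC5, BIRC6 and HTRA2 were called in none. Precision is limited by 3 libraries a group and, for DIABLO, by 102 counts in untreated cells. Where calls were lost, the cause was not tested.

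Ribosomal protein scaling gave 1318 called genes (1190 higher, 128 lower) in place of 2411, called 2 members, and gave -0.70 for BIRC2 and -0.56 for XIAP on the log2 scale, neither called. It called 1 caspase gene, 0 of the TNF receptor complex, 3 of the NF-kB list, 0 mitotic genes and 0 interferon-response genes. A filter at a mean of 5 CPM gave 920 called genes (583 higher, 337 lower), 2 members, -0.66 for XIAP (not called), 1 IAP regulator and 2 genes of the TNF receptor complex. The GC offset gave 3957 called genes (2067 higher, 1890 lower), 5 of the TNF receptor complex, 13 of the NF-kB list and 3 mitotic genes. Library totals alone gave 1671 higher and 594 lower genes, against 1527 and 884 reported, -0.67 for XIAP (not called) and 3 genes of the TNF receptor complex, DESeq2 gave 2 of that list and 1505 higher and 1123 lower genes, and no low-count filter gave 1 interferon-response gene.

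With 1 library left out, called genes ran from 1360 (without untreated replicate 2) to 2542 (without triptolide replicate 1), with 1576 without triptolide replicate 3. Called members ran from 2 (without untreated replicate 2) to 4. Log2 fold changes ran from -1.05 to -0.64 for BIRC2, from -1.60 to -1.22 for BIRC3 and from -1.01 to -0.57 for XIAP. Called genes ran from 1 to 2 for IAP regulators, 0 to 2 for caspases (0 without untreated replicate 1), 0 to 4 for the TNF receptor complex, 4 to 8 for the NF-kB list, 0 to 2 for mitosis and 0 to 2 for the interferon response.

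A block for the replicate number left the 4 called members called (BIRC3 at -1.48, adjusted p = 4.32e-07) and called 1 interferon-response gene in place of 2, STAT2 then having an adjusted p of 0.113. Deviations from the group mean correlated at 0.03, -0.04 and -0.44 for same-numbered libraries, and at -0.28 to 0.31 for differently numbered ones. With means of only 3 libraries these values depend on one another, so they cannot show whether the numbers pair the samples.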
